A study of Mus musculus with 8 samples.

Results

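The 10 genes described here encode the 5 subunits of the transcription factor NF-κB (Nfkb1, Nfkb2, Rel, Rela and Relb) and 5 of its inhibitors or feedback regulators (Nfkbia, Nfkbie, Nfkbiz, Tnfaip3 and Bcl3). They were chosen by gene name out of 53801 genes in the count table, and all 10 passed the filter on low counts. In stromal cells of melanomas, 3 of the 10 genes, Nfkbia, Nfkbiz and Bcl3, were higher in ADAM12+ cells than in ADAM12– cells, by 1.5-fold, 1.46-fold and 1.66-fold, and none was lower, where 4.66% of all tested genes were called higher. The 3 genes are all on the inhibitor and feedback side, and the calls of Nfkbiz and Bcl3 were lost with edgeR and without certain single libraries, leaving Nfkbia. None of the 5 subunit genes passed the test, although the fitted log2 fold change of every one of the 10 genes was above 0. One ADAM12– library, the shallowest of the series, held the highest ADAM12– level for 8 of the 10 genes, and the picture for Nfkb1 depended on it.

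NF-κB acts as dimers of its subunits, which wait in the cytoplasm bound to inhibitors of the IκB family until a signal such as IL-1, TNF or a Toll-like receptor ligand starts a kinase cascade that has the inhibitor degraded. The freed dimers enter the nucleus and switch on cytokine, chemokine and adhesion genes together with the genes of their own inhibitors, which closes a feedback loop. In fibroblasts this pathway is known for driving inflammatory mediators such as IL-6 and CXCL1.

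RNA was sequenced from stromal cells of subcutaneous MO5 tumours, a B16 mouse melanoma line that expresses ovalbumin, grown in ADAM12-GFP mice on the C57Bl/6 background that were 8 to 12 weeks old. These mice carry a bacterial artificial chromosome (BAC) transgene in which Adam12 regulatory sequence drives Cre and GFP, so both groups carry the transgene and GFP marks current or recent activity of the Adam12 promoter rather than ADAM12 protein. At day 8 of tumour growth, PDPN+PDGFRα+ cells without CD45 and CD31 on their surface were split by flow cytometry into GFP+ (ADAM12+) and GFP- (ADAM12–) cells, with 4 libraries of each. The labels do not tie libraries to mice. The methods of the study count replicates as mice unless stated otherwise, and whether GFP+ and GFP- libraries with the same number share a mouse is not given in the sources used here.

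Total counts ran from 883144 to 31666734 per library, with the lowest in GFP- replicate 3, whose size factor was 0.0910, so that its normalised values rest on few reads, down to 50 for Nfkbie. Values are normalised counts, the reads of a gene divided by the size factor of the library, and a gene was called where its adjusted p from DESeq2 was under 0.05. Adam12, the gene behind the sort, was at 919.7 to 1693 normalised counts in GFP- and at 1833 to 2938 in GFP+ libraries (log2 fold change 0.75 ± 0.24 SE, DESeq2 adjusted p = 0.0266). Leaving out replicate 3 or 4 of GFP- ended that call (adjusted p = 0.0689 and 0.0852), and so did leaving out replicate 2 or 4 of GFP+ (0.0767 and 0.117) and the use of edgeR on all 8 libraries (0.0643). Pdgfra and Pdpn, which encode the other sort markers, were higher in GFP+ libraries (log2 fold changes 1.32 ± 0.17 and 0.70 ± 0.21, adjusted p = 1.93e-12 and 0.0133), and Pecam1, which encodes CD31, was not called (0.42 ± 0.54, adjusted p = 0.731). The 12 stromal markers took 4.13% to 7.69% of counts in GFP- and 7.86% to 7.97% in GFP+ libraries, none was at 0 in any library, and 6 of the 12 were called higher and 0 lower, with a median log2 fold change of 0.64. The 10 melanocyte markers took 0.259% to 0.805% in GFP- and 0.0370% to 0.111% in GFP+ libraries and were all called lower in GFP+. The 21 leukocyte markers took 0.00952% to 0.0641% and 0.00938% to 0.0453%, and 0 of the 17 that could be tested were called (0 also at an unadjusted p under 0.05, which 3203 of all 15283 tested genes had). The 10 endothelial markers took 0.0140% to 0.0302% and 0.0180% to 0.0292%, and of the 7 tested 1, Vwf, was called lower and 0 higher. In bulk libraries such as these, fewer cells of a type and less RNA per cell cannot be told apart.

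Promoter sequences are shown because the members include both the factor and genes that it is known to act on. The RefSeq promoter table (GRCm38.p6; 250 bases before to 50 after a start site) held 10 windows for 7 of the 10 genes, and Nfkb1, Relb and Nfkbiz were not among them. The κB consensus motif of 10 bases, searched on both strands, was found in 8 of the 10 windows and in a window of 6 of the 7 genes, all but Rela, beside 4.51% of all 32851 windows and 5.14% of all 27025 genes in the table. Such a match describes letters only and is no evidence of binding. One stretch of 30 bases is given for each of the 6 genes, 5′ to 3′ on the strand of the gene, with the matching bases in capitals. In Nfkb2 and Rel a pair of matches overlap by 9 bases, so that 11 bases are in capitals.
Nfkbia, chr12:55492657-55492686 (minus strand): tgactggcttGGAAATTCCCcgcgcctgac
Bcl3, chr7:19822734-19822763 (minus strand): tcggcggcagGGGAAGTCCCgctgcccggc
Tnfaip3, chr10:19015403-19015432 (minus strand): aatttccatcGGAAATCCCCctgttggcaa
Nfkbie, chr17:45555584-45555613 (plus strand): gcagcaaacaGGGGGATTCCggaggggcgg
Nfkb2, chr19:46304688-46304717 (plus strand): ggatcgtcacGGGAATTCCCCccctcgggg
Rel, chr11:23771042-23771071 (minus strand): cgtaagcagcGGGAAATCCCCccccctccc
The Nfkbia match lies at positions -29 to -20 and the Tnfaip3 match at -12 to -3 from the annotated start, while that of Bcl3 begins at position 3, just inside the transcript. The Nfkbie match lies at -106 to -97. The 250 bases before the start of Nfkbia, the gene with the firmest difference between the groups, are given in full, since no annotated exon falls in them.
Nfkbia, chr12:55492648-55492897 (minus strand): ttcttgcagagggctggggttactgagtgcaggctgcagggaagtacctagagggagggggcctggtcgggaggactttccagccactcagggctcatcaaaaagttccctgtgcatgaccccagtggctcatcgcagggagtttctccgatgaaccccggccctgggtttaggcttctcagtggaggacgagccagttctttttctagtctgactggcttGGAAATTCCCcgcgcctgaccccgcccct

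Whether the subunits themselves differed between the populations was asked first. None of the 5 was called, and their log2 fold changes ran from 0.17 to 0.43 with a median of 0.23, beside a median of -0.01 over the 15283 genes tested, of which 4.66% were called higher and 4.76% lower. Positive values alone say little of a single gene, since 49.5% of all tested genes had one.

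Nfkb1 encodes p105, the precursor of p50 and itself an IκB-like inhibitor before it is processed, and it was the most abundant subunit gene. Its normalised counts were 5690, 4693, 8801 and 4193 in GFP- replicates 1 to 4 and 9684, 6837, 7947 and 6972 in GFP+ replicates 1 to 4. GFP- replicate 3 stood above 3 of the 4 GFP+ libraries, while the other GFP- libraries were all below every GFP+ library. The means were 5844 ± 2067 and 7860 ± 1313 (SD, n = 4), and the log2 fold change of 0.43 ± 0.25 (SE) was not past the threshold (DESeq2 adjusted p = 0.315, with a 95% interval of -0.05 to 0.92). Without GFP- replicate 3 it was 0.69 ± 0.19 with an adjusted p of 0.00597, and limma voom on all 8 libraries gave 0.60 with 0.0435. Gm43430, a provisional gene model on the same strand, overlaps 3897 bases of the whole span of Nfkb1, introns included. Whether that stretch holds exons of Nfkb1, and so affects its reads, was not checked.

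Rela encodes p65, the main activating partner of p50. It was at 933.4, 1128, 1187 and 986.4 in GFP- replicates 1 to 4 and at 1409, 1057, 1609 and 1030 in GFP+ replicates 1 to 4. GFP+ replicates 1 and 3 were above all GFP- libraries, and replicates 2 and 4 lay within the GFP- range. The log2 fold change was 0.28 ± 0.20 (adjusted p = 0.480, interval -0.12 to 0.68).

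Rel encodes c-Rel, a subunit best known from lymphocytes and myeloid cells. Its normalised counts were 627, 627, 1143 and 706 in GFP- replicates 1 to 4 and 714, 1207, 869 and 759 in GFP+ replicates 1 to 4. In each group 1 library stood well above the other 3, GFP- replicate 3 and GFP+ replicate 2. These are also the libraries with the most counts on leukocyte markers, 0.0641% and 0.0453% against 0.00938% to 0.0258% in the other 6, and Ptprc, which encodes the CD45 excluded by the sort, was at 1703 and 1383 normalised counts there against 119 to 707 elsewhere. The log2 fold change of Rel was 0.23 ± 0.26 (adjusted p = 0.698, interval -0.29 to 0.74) and 0.25 with an adjusted p of 0.522 when both libraries were left out. The part of leukocyte RNA in the level of Rel was not tested.

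Nfkb2 and Relb encode p100, the precursor of p52, and RelB, the pair that carries the slower non-canonical pathway. Nfkb2 was at 724.5, 733.1, 1044 and 779 in GFP- replicates 1 to 4 and at 837.4, 916.3, 927.3 and 1019 in GFP+ replicates 1 to 4. Relb was at 318.8, 433.6, 604.3 and 397.6 in GFP- replicates and at 529.1, 448.1, 522.4 and 419 in GFP+ replicates. For both genes GFP- replicate 3 was the highest of all 8 libraries, and the groups overlapped. The log2 fold changes were 0.21 ± 0.17 for Nfkb2 (adjusted p = 0.546, interval -0.13 to 0.55) and 0.17 ± 0.23 for Relb (adjusted p = 0.743, interval -0.27 to 0.62). Without GFP- replicate 3 they were 0.31 and 0.31, with adjusted p values of 0.165 and 0.361. Psd overlaps 299 bases of Nfkb2 on the opposite strand, at a mean of 33.5 normalised counts in GFP- and 27.1 in GFP+, and reads had been counted by strand.

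**Figure D1:**
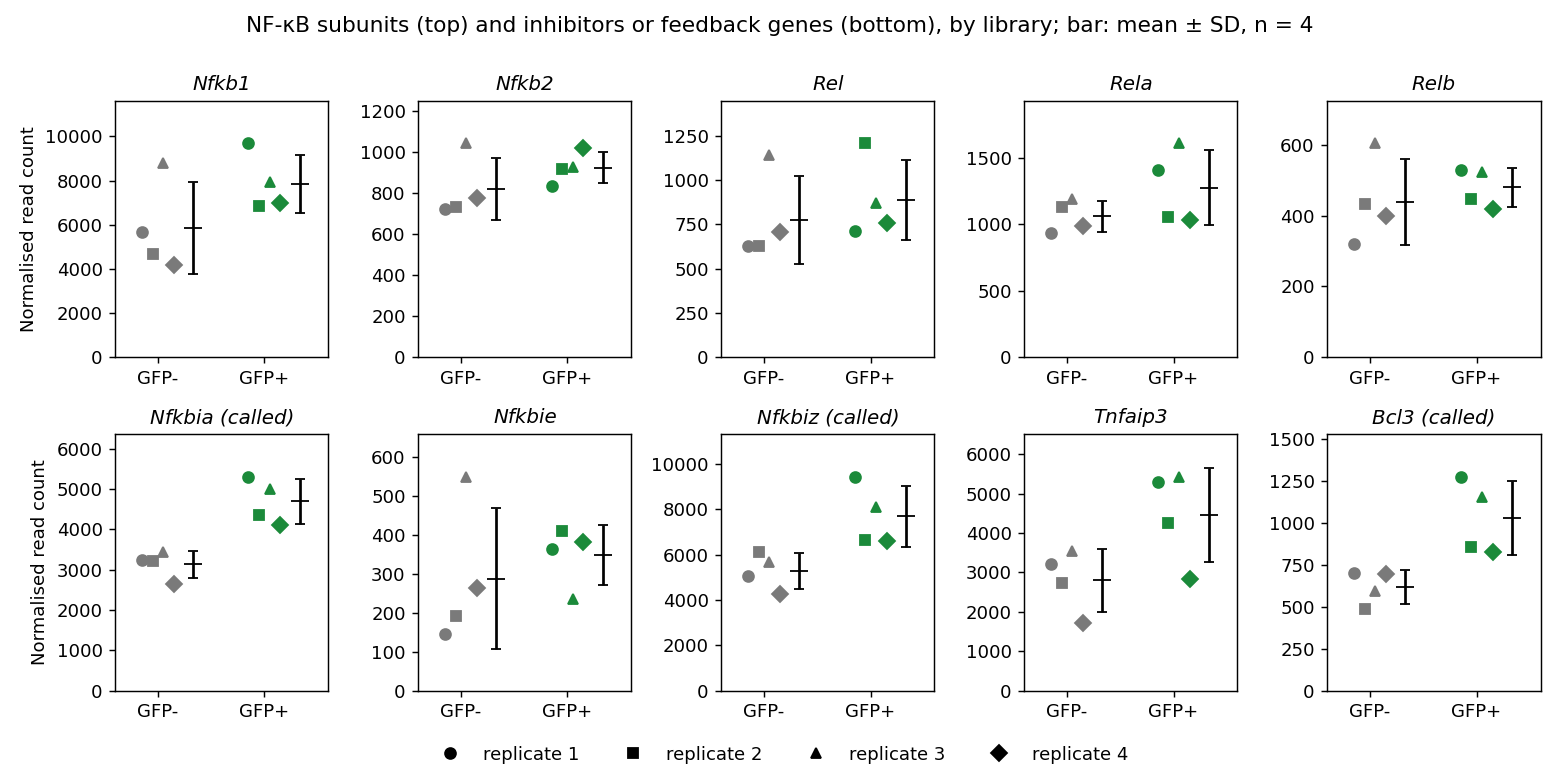
Normalised read counts of the 10 genes in each library, with GFP- in grey, GFP+ in green, a symbol for each replicate number and the mean ± SD (n = 4) beside the points. The groups are apart for Nfkbia, Nfkbiz and Bcl3 only, and GFP- replicate 3 (grey triangle) is the highest GFP- library in 8 of the 10 panels.

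On the inhibitor side, Nfkbia, Nfkbiz and Bcl3 were higher in GFP+ libraries and their groups did not overlap, whereas Tnfaip3 and Nfkbie overlapped and were not called. The 3 called of 10 members stand beside a background of 4.66% of tested genes called higher and 6.37% without overlap in this direction. That background covers genes of all levels and was not matched to the members. By mean level the members lie at percentiles 66.17 (Nfkbie) to 98.98 (Nfkb1) of the tested genes. Their roles differ. Nfkbia encodes IκBα, which returns NF-κB to the cytoplasm and is among the fastest feedback genes of the pathway, whereas Nfkbiz and Bcl3 encode nuclear IκB proteins, IκBζ and BCL3, which join p50 or p52 on DNA and can raise as well as lower the transcription of chosen targets.

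Nfkbia was at 3233, 3216, 3439 and 2652 normalised counts in GFP- replicates 1 to 4 and at 5300, 4352, 4997 and 4107 in GFP+ replicates 1 to 4. Every GFP+ library was above every GFP- library, with GFP- replicates 1 to 3 close together and replicate 4 the lowest. The means were 3135 ± 337.5 and 4689 ± 553.9 (SD, n = 4), a log2 fold change of 0.59 ± 0.15 (DESeq2 adjusted p = 0.00352), or 1.5-fold with a 95% interval of 1.22 to 1.85. It was the only one of the 10 genes called in every one of the settings tried, including edgeR (adjusted p = 0.0341) and each library left out in turn, with adjusted p values from 0.000273 to 0.0398 over all settings.

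Nfkbiz was at 5073, 6097, 5669 and 4243 in GFP- replicates 1 to 4 and at 9433, 6657, 8096 and 6611 in GFP+ replicates 1 to 4. The gap between the groups was narrow, from 6097 in GFP- replicate 2 to 6611 in GFP+ replicate 4. The means were 5270.0 ± 803.8 and 7699 ± 1346 (SD, n = 4). The log2 fold change was 0.55 ± 0.19 (DESeq2 adjusted p = 0.0371), with an interval of 1.14-fold to 1.88-fold. The call was lost with edgeR (adjusted p = 0.0833), without replicate 1 or 4 of GFP- (0.105 and 0.127) and without replicate 1 or 3 of GFP+ (0.115 and 0.134), while the log2 fold change stayed between 0.45 and 0.64 in all settings.

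Bcl3 was at 697.3, 485.2, 593.3 and 696.5 in GFP- replicates 1 to 4 and at 1273, 855.6, 1155 and 823.3 in GFP+ replicates 1 to 4. GFP+ replicates 1 and 3 were the highest, and the lowest GFP+ library was still above all GFP- libraries. The means were 618.1 ± 101.2 and 1027 ± 222.2 (SD, n = 4), and the log2 fold change of 0.73 ± 0.23 (DESeq2 adjusted p = 0.0193) was the largest fitted among the 10 genes, with an interval of 1.22-fold to 2.25-fold. The call was lost with edgeR (adjusted p = 0.0502) and limma voom (0.0576), without replicate 2 of GFP- (0.105) and without replicate 1 or 3 of GFP+ (0.0699 and 0.105). Gm16174 and Gm16175 lie antisense to Bcl3, at means of 20.7 and 6.87 normalised counts in GFP- and 17.7 and 4.72 in GFP+ libraries.

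Tnfaip3 encodes A20, a ubiquitin-editing enzyme that stops signalling upstream of the kinases. Its normalised counts were 3214, 2738, 3538 and 1718 in GFP- replicates 1 to 4 and 5285, 4254, 5429 and 2835 in GFP+ replicates 1 to 4. GFP+ replicates 1 to 3 were above all GFP- libraries, and GFP+ replicate 4 lay among the GFP- values, just as GFP- replicate 4 was the lowest of its own group. The means were 2802 ± 793.8 and 4451 ± 1198 (SD, n = 4), a log2 fold change of 0.67 ± 0.27 with an interval of 0.14 to 1.21, which did not pass the adjusted threshold (DESeq2 adjusted p = 0.106, unadjusted p = 0.0137). Without GFP+ replicate 4 it was 0.84 with an adjusted p of 0.0158. Its fitted change was within the range of the 3 called genes, and a difference between Tnfaip3 and these genes was not tested.

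Nfkbie encodes IκBε, a slower inhibitor that binds dimers of p65 and c-Rel, and was the least abundant of the 10 genes. It was at 145.2, 191.3, 549.4 and 262.6 in GFP- replicates 1 to 4 and at 363.8, 409.6, 236.6 and 382.8 in GFP+ replicates 1 to 4. The highest value of all was that of GFP- replicate 3, and the highest in GFP+ was that of replicate 2, the same libraries that were highest for Rel and for leukocyte markers. The log2 fold change was 0.35 ± 0.39 (adjusted p = 0.680, interval -0.41 to 1.11). It was 0.79 ± 0.31 without GFP- replicate 3 (adjusted p = 0.0749) and 0.70 without both libraries (adjusted p = 0.226). The part of leukocyte RNA in the level of Nfkbie was not tested.

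**Figure D2:**
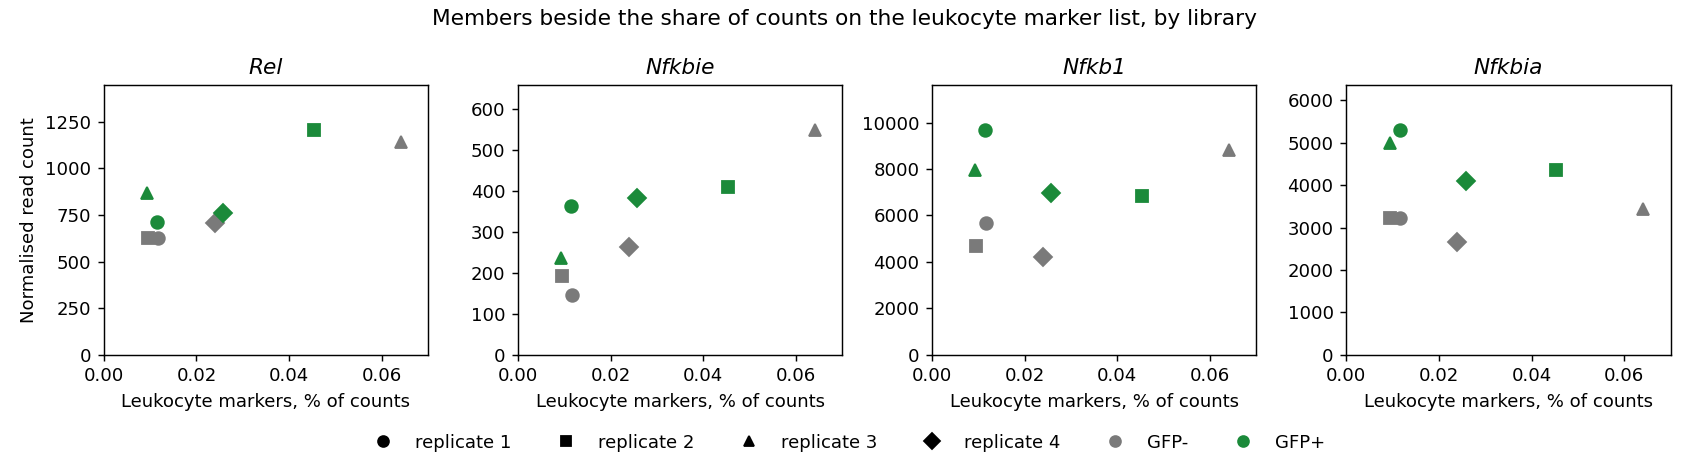
Normalised read counts of Rel, Nfkbie, Nfkb1 and Nfkbia against the percentage of counts on the 21 leukocyte markers, 1 point per library (GFP- grey, GFP+ green, symbols for replicate numbers). GFP- replicate 3 and GFP+ replicate 2, at 0.0641% and 0.0453%, hold the highest counts of Rel and Nfkbie. For Nfkbia every GFP+ library lies above every GFP- library. The groups were not compared at equal shares, and the part of leukocyte RNA was not tested.

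Leaving out both of these libraries was a setting chosen after the data were seen. Nfkbia, Nfkb1 and Bcl3 were then called higher (log2 fold changes 0.65, 0.74 and 0.78, DESeq2 adjusted p values 0.0118, 0.00986 and 0.0464). Nfkbiz had 0.64 with 0.0520, and 4.93% of tested genes were called higher. With GFP- replicate 3 alone left out, Nfkb1 joined the 3 called genes, at a background of 6.13%. With replicate 1 or 3 of GFP+ left out, Nfkbia alone was called, at backgrounds of 3.82% and 3.17%, and with GFP+ replicate 4 left out Tnfaip3 joined the other 3 at 4.16%. On all 8 libraries edgeR called Nfkbia alone, where it called 2.83% of genes higher, and limma voom called Nfkbia, Nfkb1 and Nfkbiz at 4.5%. The number of members called higher thus ran from 1 to 4 when single libraries were left out, and no member was called lower in any setting.

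**Figure D3:**
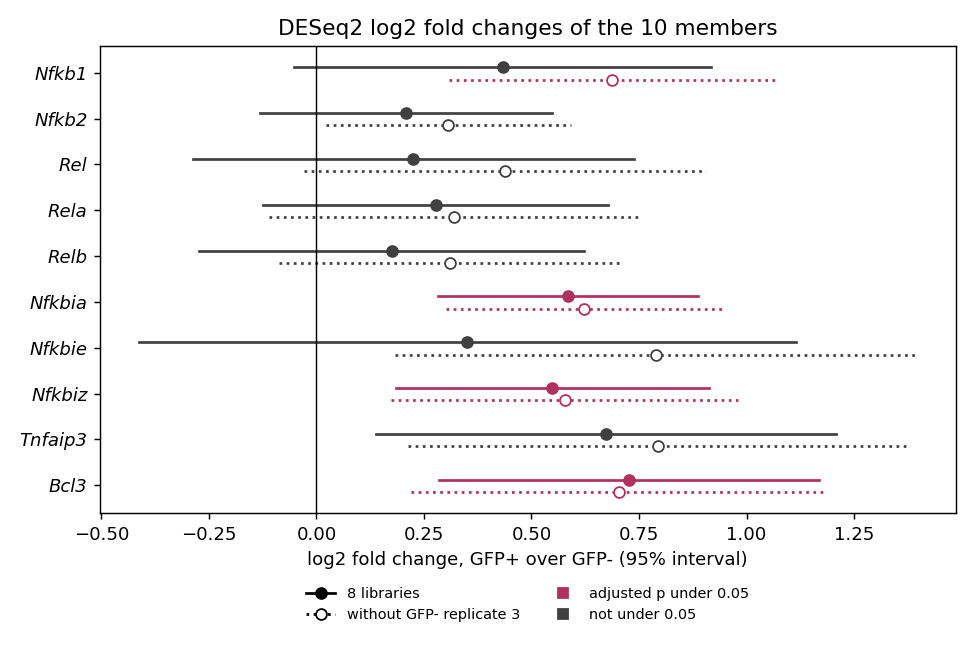
DESeq2 log2 fold changes of the 10 genes, GFP+ over GFP-, with 95% intervals, from all 8 libraries (filled points) and without GFP- replicate 3 (open points). All points lie above 0. Nfkbia, Nfkbiz and Bcl3 were called in both fits and Nfkb1 only in the second.

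Markers of other cells moved with the groups as well. The melanocyte markers, all 10 called lower in GFP+ with a median log2 fold change of -3.14, were at their highest share (0.805%) in GFP- replicate 4, which was also the lowest library for Nfkb1, Nfkbia, Nfkbiz and Tnfaip3 and the lowest for stromal markers (4.13%). Without that library Nfkbia and Bcl3 were called and Nfkbiz was not, at a background of 3.21% of genes called higher. The log2 fold change of Nfkbiz was then 0.46 (DESeq2 adjusted p = 0.127), beside 0.55 with all libraries. Early response genes such as Fos, Jun and Egr1, which rise with growth signals and with the handling of tissue, took 1.25% to 1.49% of counts in GFP- and 1.71% to 1.97% in GFP+ libraries, with 16 of 27 called higher and a median of 0.62. The part of melanoma RNA, of stromal purity and of tissue handling in the differences of the 10 genes was not tested.

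Levels of different genes were compared as normalised counts per kb of exon sequence. Over all 8 libraries Nfkbia was the highest at 2430, followed by Nfkbiz at 1292, Nfkb1 at 568, Tnfaip3 at 502, Rela at 380.1, Bcl3 at 332, Nfkb2 at 190.3, Relb at 118, Rel at 111 and Nfkbie at 104. Nfkbia and Nfkbiz stood clear of each other and of all lower genes in both groups. Tnfaip3 overlapped both Nfkb1 and Rela in both groups, while Nfkb1 and Rela overlapped each other in GFP- (348 to 729.7 and 304 to 386) and not in GFP+ (567 to 803 and 335 to 524). Relb, Rel and Nfkbie overlapped at the low end in both groups, and in GFP- libraries Nfkbie, at up to 180.4, also reached the range of Nfkb2. Bcl3 lay beside Nfkb2 in GFP- libraries, where their ranges touched (196 to 282 and 158 to 228), and beside Rela in GFP+ libraries (333 to 514.5 and 335 to 524), at a clear distance from Nfkb2 (183 to 222). The order of the means was the same in both groups.

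The place of Nfkb1 in this order rested on the length used, because its annotated exons join to 12061 bases while its longest transcript has 4149. Per kb of the longest transcript Nfkb1 was second at 1652, overlapping Nfkbiz at 1576, and Bcl3 passed Rela in GFP+ libraries. In GFP- libraries Nfkb1 then also overlapped Nfkbia (1011 to 2121 and 1681 to 2179). The summed level of the 5 inhibitor or feedback genes was also set over that of the 5 subunit genes. By exon length the ratio was 3.45, 3.46, 2.53 and 2.99 in GFP- replicates 1 to 4. It was 3.90, 3.67, 3.68 and 3.51 in GFP+ replicates 1 to 4, with no overlap. By longest transcript it was 2.03, 2.19, 1.46 and 1.93 against 2.20, 2.20, 2.22 and 2.05, and the groups then overlapped. Both sets are given as a description with no test. Nfkbia and Nfkbiz, both called, were the largest parts of the inhibitor and feedback sum. The ratio is one of transcripts grouped by list and does not measure inhibition.

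**Figure D4:**
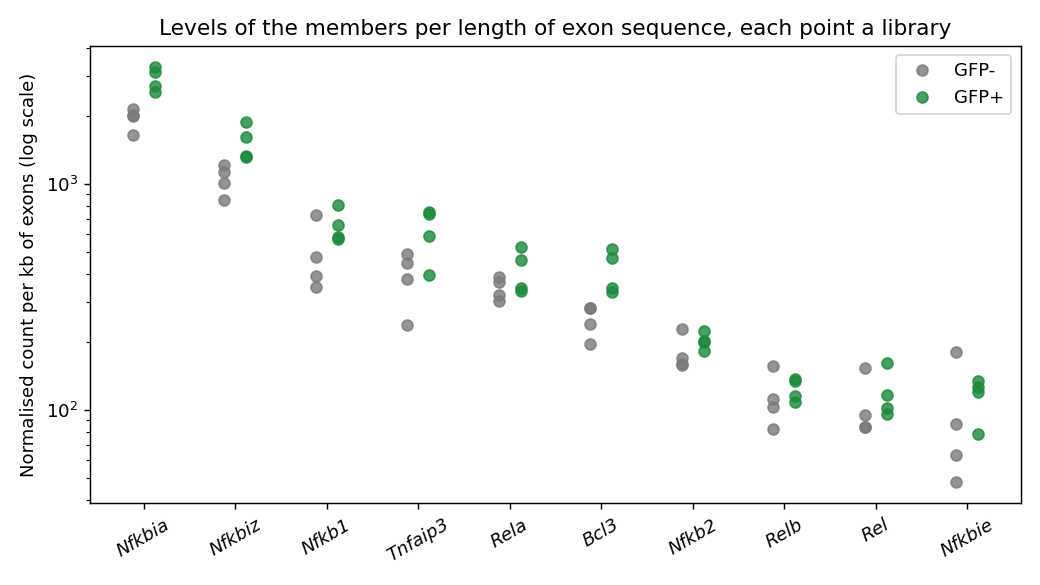
Normalised counts per kb of annotated exons on a log axis for the 10 genes, ordered by their mean over all libraries, 1 point per library (GFP- grey, GFP+ green). Nfkbia (mean 2430) and Nfkbiz (1292) stand above the rest, and Relb, Rel and Nfkbie overlap at the low end.

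The members were also combined into a profile, the mean over the 10 genes of the log2 normalised count centred on each gene's own mean. It was -0.35, -0.31, 0.19 and -0.38 in GFP- replicates 1 to 4 and 0.35, 0.18, 0.28 and 0.03 in GFP+ replicates 1 to 4. GFP- replicate 3 thus sat among the GFP+ libraries, with 7 of the 10 genes above their own mean, and the other 3 GFP- libraries had 0. Among the 8802 other genes with a mean of at least 100 normalised counts, those with a profile over the 8 libraries most like it included Ifi27l2a (Pearson r = 0.98), Adamtsl1 (0.98), Ctps2 (0.97) and Papln (0.97). These values are a description over 8 libraries that share the group difference and the depth of each library. Of these genes Ifi27l2a, Adamtsl1 and Papln were called higher, with log2 fold changes of 0.93, 1.04 and 1.84 (DESeq2 adjusted p = 0.00202, 0.000685 and 0.0147). Ctps2 was not called (0.83, adjusted p = 0.129). Since the profile itself differed between the groups, a higher level in GFP+ was built into the choice of these genes.

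Upstream of the members, 3 of 30 tested receptor and adaptor genes were called higher and 0 lower, beside 4.66% and 4.76% of all tested genes, with a median log2 fold change of 0.21. Il1r1, the signalling receptor for IL-1, was at 2271, 2451, 3560 and 1816 in GFP- replicates 1 to 4 and at 5205, 4844, 6006 and 4933 in GFP+ replicates 1 to 4, with every GFP+ library above every GFP- library. Its log2 fold change was 1.07 ± 0.21 (DESeq2 adjusted p = 3.51e-05), and it stayed called in all settings. Tnfrsf1a, the main TNF receptor of stromal cells, and Irak1, a kinase that relays IL-1 and Toll-like receptor signals, had 0.64 ± 0.20 (adjusted p = 0.0202) and 0.60 ± 0.21 (adjusted p = 0.0408). Both calls were lost with edgeR (0.0579 and 0.0808) and when replicate 1 or 4 of GFP- or replicate 1 or 3 of GFP+ was left out (0.0805, 0.0732, 0.0632 and 0.107 for Tnfrsf1a, and 0.0992, 0.126, 0.119 and 0.144 for Irak1). The call of Irak1 was also lost without GFP- replicate 2 (0.138) or GFP+ replicate 2 (0.0814), with limma voom (0.0913) and without independent filtering (0.0765). Irak3, a decoy kinase that damps the same signals, and Ripk1, which carries TNF receptor signals, had 0.53 ± 0.29 (adjusted p = 0.280) and 0.22 ± 0.18 (adjusted p = 0.549).

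None of the 12 kinase genes was called by DESeq2 in either direction, beside 4.66% of all tested genes called higher and 4.76% lower, and 0 had an unadjusted p under 0.05, beside 3203 of 15283. Their median was 0.03, with a range of -0.46 to 0.41. The 5 most abundant were Tab2, Map3k7, Tbk1, Map3k8 and Map3k3, which encode kinases that act on or beside the IκB kinase complex or, for Tab2, a partner of one. Their log2 fold changes were -0.02, 0.02, -0.21, 0.14 and 0.03, each with an interval that includes 0 and adjusted p values of 0.671 or above. Edges of these intervals lay between -0.65 and 0.72.

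Of 22 other inhibitors of the pathway that were tested, 0 were called by DESeq2, beside the same shares of all tested genes (4.66% and 4.76%), 2 had an unadjusted p under 0.05, beside 3203 of 15283, and the median was 0.06. Tax1bp1, an adaptor through which A20 acts, had 0.34 ± 0.14 (adjusted p = 0.102) with no overlap between the groups, and it was called without GFP+ replicate 1 (0.42, adjusted p = 0.0473). Nlrc5, best known as an activator of MHC class I genes, had -0.64 ± 0.26 (adjusted p = 0.0985). Tnip1, a partner of A20, had 0.42 ± 0.23 (adjusted p = 0.285), while the ubiquitin ligase gene Itch and the deubiquitinase gene Otud7b had 0.23 ± 0.21 and -0.01 ± 0.24 (adjusted p = 0.608 and 0.987). A difference between these genes and the 3 called members was not tested.

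Among known target genes of NF-κB, 15 of 38 tested were called higher and 1, Mmp9, was called lower, beside 4.66% and 4.76% of all tested genes, with a median log2 fold change of 0.77. The 5 with the smallest adjusted p among them were Mmp3, Icam1, Il6, Cxcl1 and Lcn2. Mmp3, a matrix-degrading protease, was at 1449 to 2329 in GFP- and 6606 to 7615 in GFP+ libraries (1.95 ± 0.17, adjusted p = 1.42e-26). The adhesion molecule gene Icam1 and the cytokine genes Il6 and Cxcl1 had 1.15 ± 0.19, 1.06 ± 0.18 and 1.12 ± 0.19 (adjusted p = 2.39e-07, 2.2e-07 and 2.2e-07). Lcn2, an iron-carrier protein of inflammation, was at 0.0 to 12.1 in GFP- and 96.03 to 139 in GFP+ libraries (3.82 ± 0.61, adjusted p = 4.33e-08). Mmp9, chosen after its value was seen, was at 136 to 361 in GFP- and 12.1 to 128 in GFP+ libraries (-2.47 ± 0.64, adjusted p = 0.00284). The other 22 tested targets were not called, and a difference between the targets and the 10 members was not tested. This list, like the others here, was chosen with earlier results of these data known. Its share of called genes is therefore a description and no support for NF-κB activity.

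**Figure D5:**
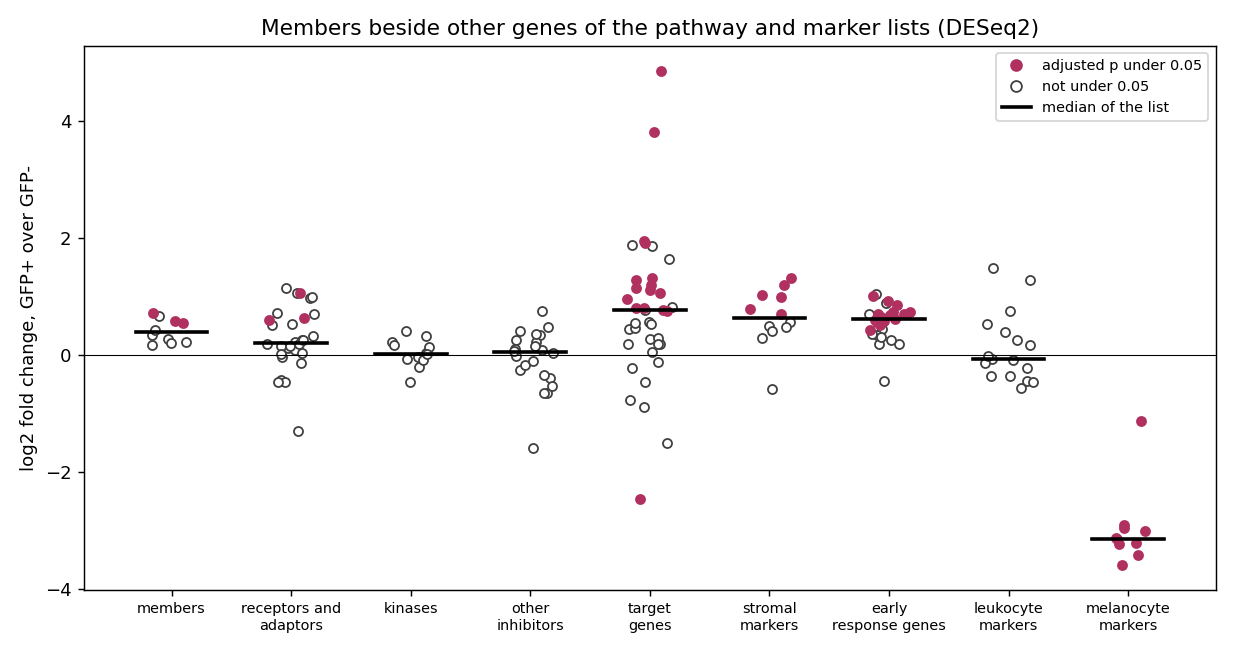
DESeq2 log2 fold changes, GFP+ over GFP-, of the 10 members, of 4 lists of other genes of the pathway and of 4 marker lists, 1 point per tested gene (filled where the adjusted p was under 0.05) with the median of each list as a bar; sideways spread is arbitrary. The medians are 0.39 for the members, 0.21 for receptors and adaptors, 0.03 for kinases, 0.06 for other inhibitors, 0.77 for targets and -3.14 for melanocyte markers.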

How the data were processed

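Libraries had been made from total RNA with the stranded SMARTer Pico kit. According to the methods of the study, the authors trimmed reads with cutadapt 3.4, mapped them to GRCm38 with STAR 2.7.3a and assigned them by strand to Ensembl genes (release 92) with featureCounts 2.0.1. The authors deposited raw counts per gene and library, which were used here; per-sample columns left unused: 0. The authors also deposited a normalised score per gene and library, the count divided by a DESeq2 size factor and rounded, which served only to check the size factors. Deposited columns of mean, fold change and p-value hold the authors' own comparison and were not used.

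Counts of the 8 libraries were fitted with DESeq2 1.42.0 in R 4.3.3 (a two-sided Wald test on group, size factors by median of ratios, Benjamini-Hochberg adjustment over 15283 genes, called at adjusted p under 0.05). The name "normalised count" means the raw count divided by the size factor. Exon lengths came from GENCODE M21, in which 99.82% of gene identifiers were found, and promoters from RefSeq. Alternatives were edgeR 4.0.16 (quasi-likelihood, TMM), limma 3.58.1 (voom), TMM or high-count size factors in DESeq2, a mean of at least 10 counts, no independent or Cook's distance filter, a replicate block, an adjusted p under 0.01 and each library left out. The code was tested on simulated data. No pair of replicates was a duplicate (chi-square per degree of freedom 12.3 to 114). Members and lists were chosen with earlier results of these data known. Besides members and sort genes, the genes named were up to 5 of each pathway list, called genes by smallest adjusted p and then the most abundant, and the 5 genes most like the members' profile, of which 1 is not reported here.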

Additional observations from a re-analysis of the deposited data

Results flagged for a closer look

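In 2 of 30 groups of 4 libraries checked, 1 library stood apart from the other 3 by a gap, relative to the group's whole range, above Dixon's critical value. Chance flags about 1 in 20 such groups. Both were GFP- replicate 3, at 1044 normalised counts of Nfkb2 (a gap of 0.8293 of the range) and at 1143 of Rel (0.8465), where the other GFP- libraries were at 724.5 to 779 and 626.8 to 706. This library had 883144 reads in all, the fewest of the series, and the largest share of counts on leukocyte markers, 0.0641%. Without it, neither gene was called (log2 fold changes 0.31 and 0.44, DESeq2 adjusted p = 0.165 and 0.247). The cause was not tested.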

How the results depend on the processing

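With DESeq2 in its other settings (TMM factors, size factors based on genes averaging 100 counts or more, a mean of at least 10 counts, no Cook's distance filter) the same 3 members, Nfkbia, Nfkbiz and Bcl3, were called. Without independent filtering Nfkbiz was lost (adjusted p = 0.0696). edgeR called 732 genes in all in place of 1439, 1 member and 1 receptor or adaptor. At an adjusted p under 0.01 there were 844 genes, 1 member and 1 receptor or adaptor. When single libraries were left out, 969 to 1837 genes, 1 to 4 members, 1 to 4 receptors or adaptors, 0 to 1 other inhibitors called higher and 1 to 2 targets called lower were counted. A setting without GFP- replicate 3 and GFP+ replicate 2 was chosen after seeing the data and gave 2 targets called lower. The sign of some small uncalled changes turned: Tab2 (-0.064 to 0.012 with 1 library left out), Map3k3 (-0.041 to 0.14, and -0.03 without both), Map3k7 (-0.048 to 0.15), Map3k8 (-0.054 to 0.33) and Otud7b (-0.12 to 0.22, 0.10 with limma voom and 0.0041 with TMM factors in DESeq2). The causes were not tested. No scaling moved the median of all genes beyond -0.03 to 0.03.

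The labels do not say that a shared replicate number marks a mouse, and the numbers were not taken as pairs: deviations of same-numbered libraries correlated at 0.05, -0.16, -0.12 and 0.26, and not every library correlated best with its own number. With the replicate block, DESeq2 called Tnfaip3 (0.67, adjusted p = 5.05e-06) beside the same 3 members, 1 other inhibitor lower (Nlrc5, adjusted p = 0.0436) and gave 0.015 for Otud7b. edgeR with the replicate block called 596 genes, did not call Adam12 (adjusted p = 0.124), and called 1 receptor or adaptor and 2 members, Nfkbia and Tnfaip3 (0.68, adjusted p = 0.0182), and gave 0.025 for Otud7b. Depth limits what can be said of GFP- replicate 3, where a member rested on as few as 50 reads (Nfkbie), and reads without molecular identifiers are not independent molecules. With 4 libraries per group the intervals of the uncalled members are wide, so that a missed threshold does not show an equal level.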
